A study of Mus musculus with 12 samples.

Results

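The 11 probe sets described here measure 8 protein-coding genes lying around Il2rb on mouse chromosome 15, out of 45101 probe sets on the array. The genes are Ncf4, Csf2rb2 and Csf2rb on one side of Il2rb and Rac2, Mfng, Lgals1, Apobec3 and Atf4 on the other. They were chosen by chromosome position, at a time when measured strain differences of these same arrays were already known, so the strain differences below are given as a description, with no test. In the RefSeq annotation of GRCm38.p6 the stretch from Ncf4 to Atf4 is 2.01 Mb long and holds 63 protein-coding genes. The other 54, beside these 8 and Il2rb, were not analysed here.

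RNA was taken from CD4+ CD25hi T cells of the spleen, 3 arrays for each of 4 groups. Regulatory T (Treg) cells were sorted from fresh spleen, and effector T cells after unfractionated spleen cells had spent 48 hours in culture with anti-CD3, an antibody that stimulates the T cell receptor. Each population was taken from normal C57BL/6 mice and from a line named C57BL/6-2Rbeta-WT/thymus, which is called transgenic below and combines a transgene with a deficient Il2rb. The labels place the wild-type receptor beta transgene in the thymus and describe the peripheral T cells as IL-2R defective. The promoter of the transgene and the strain in which the Il2rb allele was made are not given in the sources used here. An effector array held the cells of 1 mouse aged 9 to 15 weeks. C57BL/6 Treg arrays 1 to 3 were pools of 8, 8 and 15 mice aged 12, 12 and 10 weeks. Transgenic Treg arrays 1 to 3 were pools of 4, 8 and 3 mice aged 33, 13 and 7 to 16 weeks. Age and pool size thus differed between the strains in Treg cells and cannot be fully told apart from strain there. Transgenic Treg array 1 was the oldest pool, at 33 weeks. Transgenic effector array 3 carries the purification text of fresh cells although its title and source say cultured effector cells. Values are log2 GCRMA values, 1 per probe set and array, with array medians of 3.08 to 3.27. The smallest value was 0.296 to 0.325 on effector arrays and 0.942 to 0.957 on Treg arrays, so levels set across the populations may carry a difference of scale. The table pairs no probe set with Il2rb or with markers of T cells and other cells, so neither the loss of Il2rb nor the sort was checked on the arrays here. In sorted cells measured in bulk, fewer cells of a type and less RNA per cell cannot be told apart.

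Il2rb encodes the receptor chain through which IL-2 and IL-15 activate JAK kinases and STAT5, and Treg cells depend on it. Several of its neighbours also work in blood cells. Csf2rb encodes the beta chain shared by the receptors of GM-CSF, IL-3 and IL-5, and Csf2rb2 a beta chain of the IL-3 receptor only. Ncf4 and Rac2 serve the phagocyte NADPH oxidase, and Rac2 also drives actin remodelling in T cells. Neighbours of a targeted gene are of interest in their own right, because a targeted allele made in stem cells of one strain and crossed into another can keep a stretch of the first strain's DNA around it. The arrays do not read genotype, so the strain of origin of the DNA around Il2rb was not tested.

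Apobec3, a cytidine deaminase that restricts retroviruses and whose amount and splicing are known to vary among inbred mice, differed most among the 8 genes. Probe set 1417470_AT read 10.10, 9.51 and 9.44 on C57BL/6 Treg arrays 1 to 3 and 6.98, 6.35 and 6.77 on the transgenic Treg arrays. In effector cells it read 11.53, 11.34 and 11.52 for C57BL/6 and 8.50, 8.43 and 7.91 for transgenic arrays 1 to 3. Every transgenic array thus lay below every C57BL/6 array, across populations as well as within them. The difference was -2.98 on the log2 scale (standard error 0.23, n = 3 and 3) in Treg cells, a 7.89-fold lower signal. In effector cells it was -3.18 (standard error 0.23), a 9.09-fold lower signal. Only 1 probe set stands for Apobec3 here. Whether its signal reflects the amount of RNA, its splicing or a sequence difference under the probes was not tested. The strain difference was thus of like size in both populations, 0.20 apart with a standard error of 0.33. The highest transgenic array stayed 2.45 below the lowest C57BL/6 array in Treg cells and 2.85 below it in effector cells. Levels ran from C57BL/6 effector (11.46 ± 0.11, SD, n = 3) through C57BL/6 Treg (9.68 ± 0.37) and transgenic effector (8.28 ± 0.32) to transgenic Treg cells (6.70 ± 0.32), and no neighbours in this order overlapped.

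Of 18271 tested probe sets, 0.192% differed between the strains by as much as Apobec3 in Treg cells and 0.246% in effector cells, in either direction. Only 5, Apobec3 included, lay as far down in both populations. The transgenic arrays were still at 6.35 or higher, above the log2 value of 5 used here as the lower limit for testing. Provider runs here are those read from consecutive sample codes in the labels. Within the one such run that held Treg arrays of both strains, 2 per strain, the difference was -3.14.

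Apobec3 has 2 annotated starts in RefSeq's table of promoters (GRCm38.p6). The 250 bases before each are shown because the signal of this gene differed most among the 8 genes. Both lie on the plus strand, at chr15:79892158-79892407 and chr15:79894773-79895022. Capitals mark a match to the core of an interferon-stimulated element, GAAANNGAA, searched on both strands together with the STAT5 motif TTCNNNGAA.
Apobec3 first start: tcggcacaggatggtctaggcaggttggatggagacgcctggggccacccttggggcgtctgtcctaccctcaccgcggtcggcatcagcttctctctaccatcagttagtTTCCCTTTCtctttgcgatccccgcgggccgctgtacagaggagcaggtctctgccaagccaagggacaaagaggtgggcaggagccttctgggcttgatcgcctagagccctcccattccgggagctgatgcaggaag
Apobec3 second start: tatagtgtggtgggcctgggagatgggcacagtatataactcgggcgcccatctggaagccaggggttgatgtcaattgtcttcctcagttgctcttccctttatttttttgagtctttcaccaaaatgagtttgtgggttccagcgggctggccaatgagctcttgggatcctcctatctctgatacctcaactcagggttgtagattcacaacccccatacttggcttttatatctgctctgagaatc
The one match begins 139 bases before the first start, on the opposite strand. Such a match is found in 7.13% of 32851 promoter windows of 250 bases, and the STAT5 motif, which is in neither Apobec3 window, in 7.02%. A match is a description of the reference letters only, and the probe set does not say which start was used. Of the 8 genes, 3 were in the table of promoters, namely Apobec3, Atf4 and Csf2rb2.

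**Figure D1:**
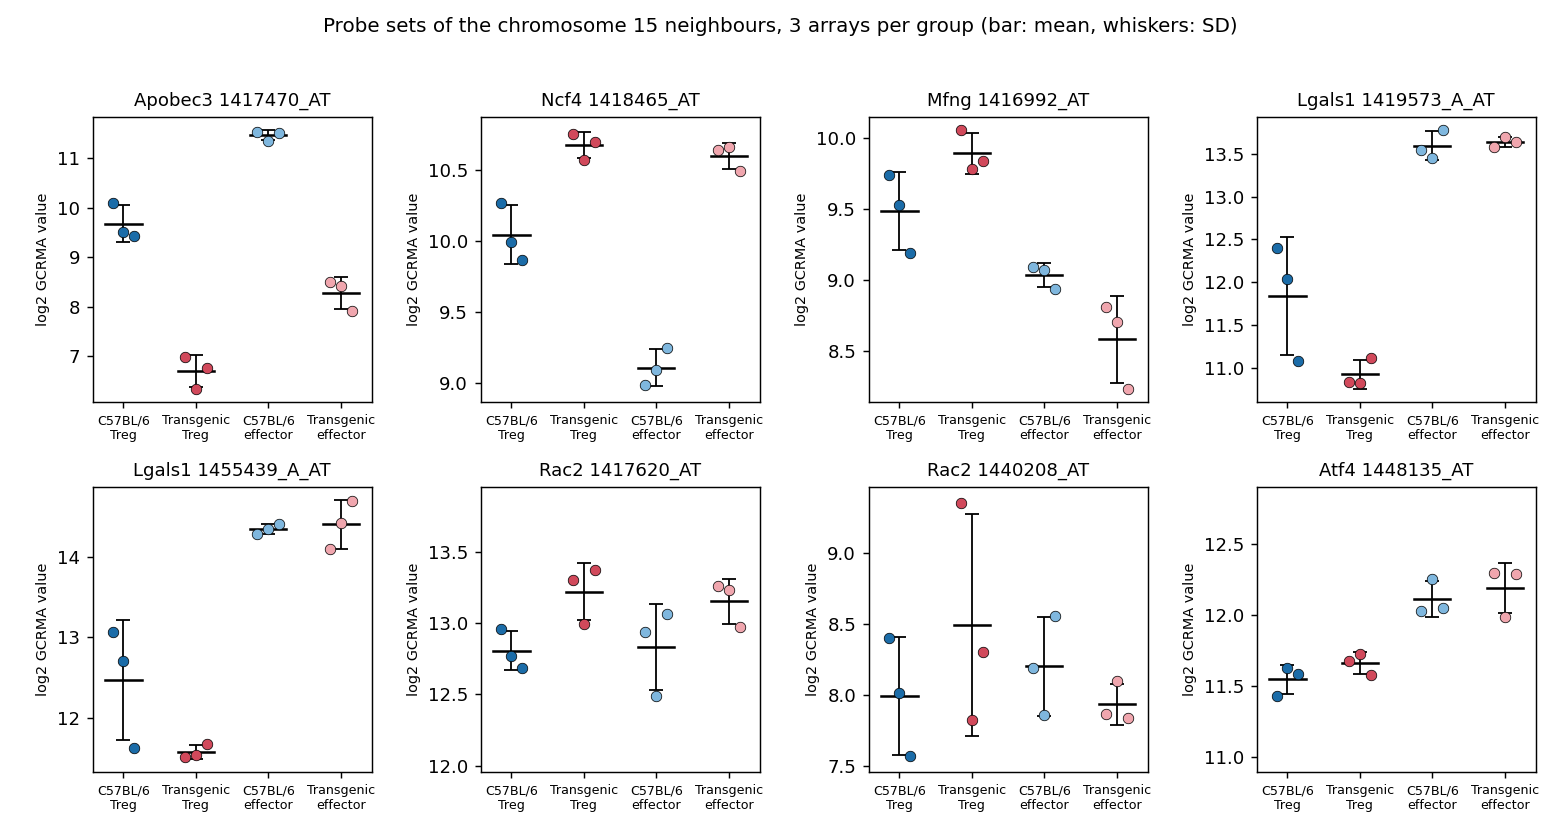
Log2 GCRMA values of the 8 probe sets that were tested, by group, with 1 point per array, the mean as a bar and the SD as whiskers; each panel has its own axis. Apobec3 is lower and Ncf4 higher on every transgenic array than on the C57BL/6 arrays of the same population, and the C57BL/6 Treg arrays of Lgals1 spread widely.

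Ncf4, which encodes the p40phox subunit of the phagocyte NADPH oxidase, lay higher in transgenic mice in both populations. Probe set 1418465_AT read 8.99, 9.09 and 9.25 on the C57BL/6 effector arrays against 10.64, 10.66 and 10.49 on the transgenic ones. In Treg cells it read 10.27, 9.99 and 9.86 against 10.75, 10.57 and 10.69. The groups did not overlap in either population. The difference was 1.49 (standard error 0.14, 2.80-fold) in effector cells and 0.63 (standard error 0.14, 1.55-fold) in Treg cells, so it was smaller in Treg cells by 0.86 with a standard error of 0.20. Transgenic Treg and transgenic effector cells overlapped at 10.67 ± 0.09 and 10.60 ± 0.09 (SD, n = 3), above C57BL/6 Treg (10.04 ± 0.21) and C57BL/6 effector cells (9.11 ± 0.13). In effector cells 1.95% of tested probe sets differed by as much, and in Treg cells 8.36%. In all, 29 probe sets, Ncf4 included, lay as far up in both populations.

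Mfng encodes manic fringe, a glycosyltransferase that tunes how Notch receptors respond to their ligands. Its probe set 1416992_AT lay higher in transgenic Treg cells (10.06, 9.78 and 9.84) than in C57BL/6 Treg cells (9.74, 9.53 and 9.19). In effector cells the order was turned, with 8.81, 8.71 and 8.24 in transgenic and 9.10, 9.08 and 8.94 in C57BL/6 mice. No groups overlapped, but the gaps were narrow, at 0.045 in Treg and 0.12 in effector cells. Transgenic minus C57BL/6 gave 0.41 (Treg) and -0.45 (effector), each with a standard error of 0.19. Single arrays carried much of both, since the value was 0.26 without C57BL/6 Treg array 3 and -0.28 without transgenic effector array 3.

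Lgals1 encodes galectin-1, a secreted lectin that binds glycans on T cells and that Treg cells are known to use in suppression. Its probe sets 1419573_A_AT and 1455439_A_AT followed each other closely on the Treg arrays (r = 0.99 over 6 arrays) and less so on the effector arrays (r = 0.33 over 6), where the range was narrow. In Treg cells 1419573_A_AT read 12.40, 12.04 and 11.08 for C57BL/6 against 10.84, 10.82 and 11.12 for transgenic arrays. Probe set 1455439_A_AT read 13.06, 12.71 and 11.63 against 11.52, 11.54 and 11.68. On both, C57BL/6 Treg array 3 lay among the transgenic arrays and arrays 1 and 2 above them, so the groups overlapped. The differences in Treg cells were -0.91 (standard error 0.26) and -0.89 (standard error 0.29). They were -1.39 and -1.35 within the shared provider run, as read from the sample codes, which leaves out array 3 of both strains. C57BL/6 Treg array 3 was a pool of 15 mice and was read as another run. Without C57BL/6 Treg array 1 they were smaller, at -0.63 and -0.59. In effector cells the strains overlapped and differed by 0.04 and 0.06, with standard errors of 0.26 and 0.29.

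Rac2 is the nearest of these genes to Il2rb. In Treg cells its probe set 1417620_AT read 12.96, 12.77 and 12.69 for C57BL/6 against 13.30, 12.99 and 13.37 for transgenic arrays, a difference of 0.42 (standard error 0.17) with a gap of 0.035 between the groups. In effector cells it read 12.94, 12.49 and 13.07 against 13.26, 13.23 and 12.97. Here the groups overlapped and the difference was 0.32 (standard error 0.17), or 0.15 without C57BL/6 effector array 2. The second Rac2 probe set, 1440208_AT, differed in the same direction in Treg cells, by 0.50 (standard error 0.35), and in the opposite direction in effector cells, by -0.27 (standard error 0.35). It overlapped between the strains in both populations, with C57BL/6 ranges of 7.57 to 8.40 (Treg) and 7.86 to 8.56 (effector) and transgenic ranges of 7.82 to 9.35 and 7.84 to 8.10. Its difference in Treg cells moved with single arrays: it was 0.066 without transgenic Treg array 1, the pool aged 33 weeks, and 0.83 without transgenic Treg array 2. Leaving out C57BL/6 Treg array 3 gave 0.28. In effector cells it was -0.09 without C57BL/6 array 3 and -0.44 without C57BL/6 array 2. Over all 12 arrays the pair correlated at 0.52.

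Atf4, the most distant of these genes, encodes the transcription factor of the integrated stress response. Probe set 1448135_AT ranged from 11.43 to 11.63 on C57BL/6 and from 11.58 to 11.73 on transgenic Treg arrays. Its effector ranges were 12.03 to 12.26 (C57BL/6) and 11.99 to 12.29 (transgenic). The strains overlapped in both populations, with differences of 0.11 and 0.08 (standard error 0.12 each).

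The receptor beta chains read low on every array. Csf2rb probe sets 1421326_AT and 1455660_AT read 2.49 to 2.66 and 2.41 to 2.77 over all 12 arrays, and Csf2rb2 probe set 1449360_AT read 1.82 to 2.04. All 3 lay below a log2 value of 5 on every array and were not tested, and their strain differences lay between -0.03 and -0.003. GCRMA compresses differences among low values, so these probe sets do not show whether the receptor genes differ between the strains. The encoded chains are close paralogs, and which of them a probe set reads was not checked here.

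**Figure D2:**
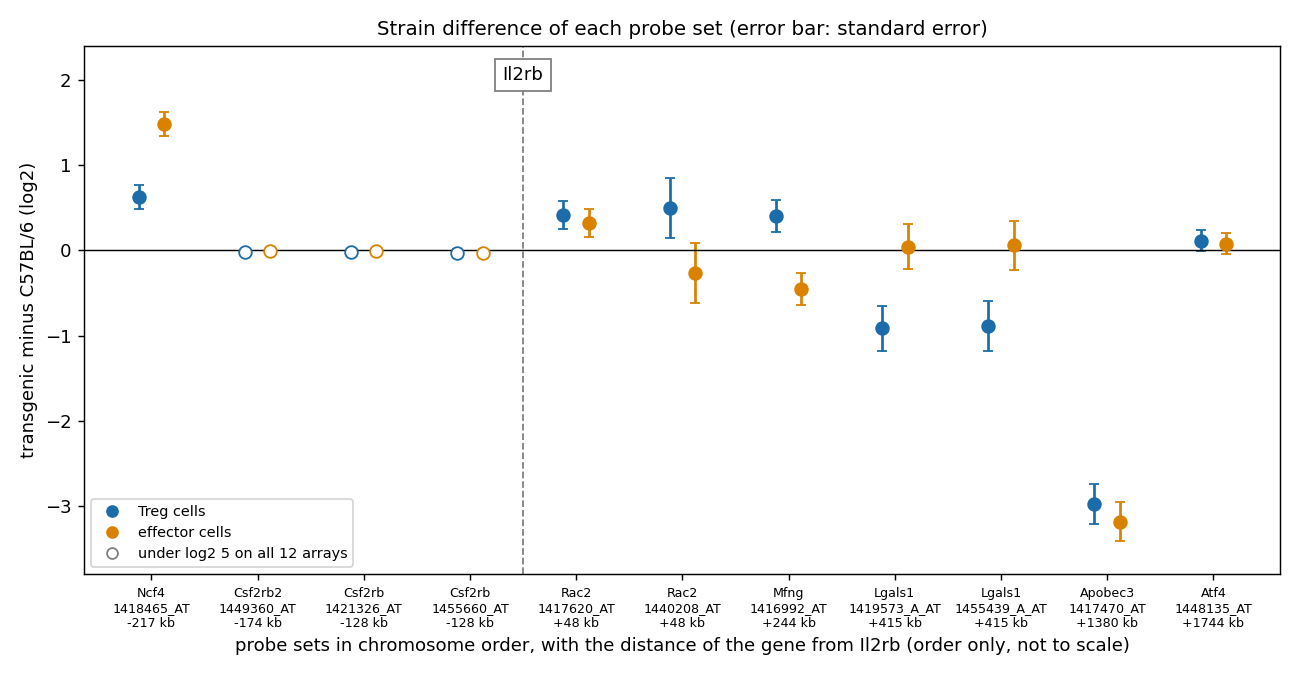
Transgenic minus C57BL/6 difference (log2) of each of the 11 probe sets in Treg and effector cells, in chromosome order with the distance of each gene from Il2rb in kb; bars are standard errors from the model with 4 group means. Apobec3, 1380 kb from Il2rb, has the lowest values in both populations, and open points mark the 3 probe sets under a log2 value of 5 on all arrays.

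Size of the strain difference did not follow distance from Il2rb in either direction among these genes. Rac2, 47.5 kb away with 2 protein-coding genes between, differed by at most 0.50 on either probe set, while Ncf4, 216.7 kb away on the other side, differed by 1.49 in effector cells. Beyond Rac2 on its side, Mfng at 244.3 kb differed by 0.41 in Treg and -0.45 in effector cells. Lgals1 at 415.1 kb differed by -0.91 and -0.89 in Treg cells and by 0.04 and 0.06 in effector cells. Apobec3, at 1380.4 kb with 45 protein-coding genes between it and Il2rb, differed by -2.98 and -3.18. Atf4, at 1743.6 kb with 53 genes between, differed by 0.11 and 0.08. With 6 expressed genes and 54 others not analysed, this gives the order of these genes and not a course along the chromosome.

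Among the 8 probe sets above the lower limit, the strains did not overlap for 4 in Treg cells (14.8% of all tested probe sets) and for 3 in effector cells (22.8%). Apobec3 and Ncf4 did not overlap in both populations with the same direction, as 1.93% of all tested probe sets did, and Mfng did so with opposite directions, as 2.07% did. Since these contrasts were known when the genes were chosen, nothing is read from these counts. The median strain difference of the 8 was 0.26 in Treg and 0.05 in effector cells, against 0.03 and -0.01 over all tested probe sets.

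**Figure D3:**
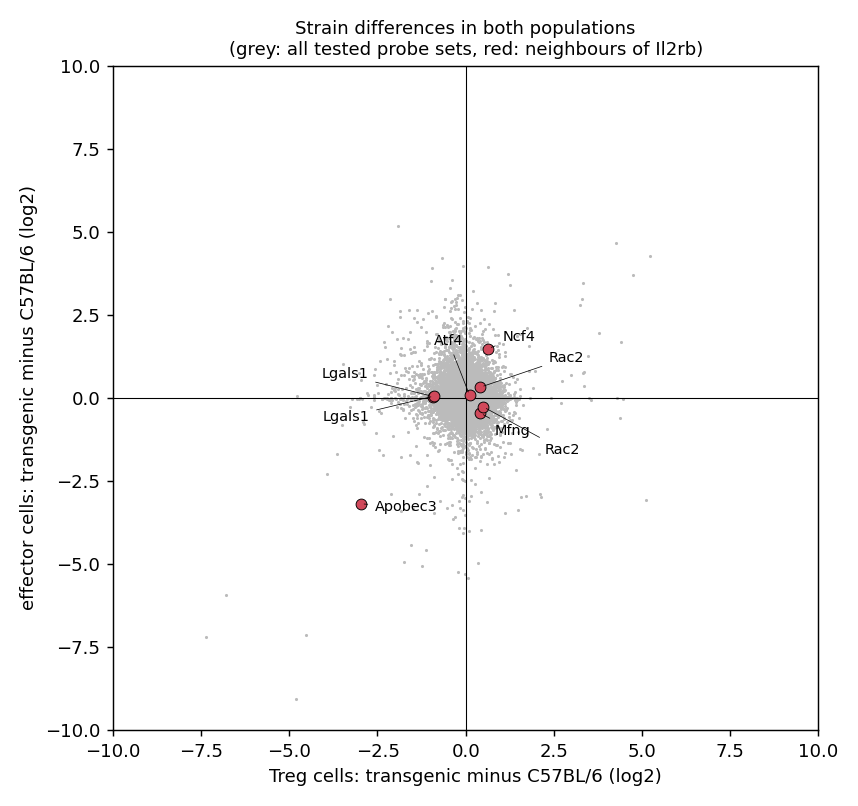
Strain difference (transgenic minus C57BL/6, log2) in Treg cells on the horizontal axis against effector cells on the vertical axis, for 18271 tested probe sets in grey and the 8 tested neighbours of Il2rb in red. Apobec3 lies at -2.98 and -3.18, apart from the main cloud, Ncf4 at 0.63 and 1.49, and Lgals1 left of the centre on the horizontal axis.

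The genes were chosen by position, not for the comparison of fresh Treg with activated effector cells in C57BL/6 mice. That comparison was tested (limma adjusted p under 0.05 over all tested probe sets). It shares its C57BL/6 arrays with the strain differences, and earlier results of these data were known, so its independence of the choice is not assured. Of the 8 tested probe sets, 6 passed, which measure 5 genes, against 73.8% of all tested probe sets, so their share is near that of the whole array. Apobec3 was 3.44-fold lower in Treg cells (limma adjusted p = 3.03e-05). Both Lgals1 probe sets were lower too, by 3.38-fold and 3.67-fold (limma adjusted p = 9.54e-05 and 0.000122). Atf4 was 1.48-fold lower (limma adjusted p = 0.00154), at 11.55 ± 0.10 against 12.11 ± 0.13 (SD, n = 3). That call ended when all arrays were given one distribution by quantile normalization, where the difference was 0.17 (limma adjusted p = 0.229). Ncf4 was 1.91-fold higher in Treg cells (limma adjusted p = 8.71e-05). Mfng was 1.37-fold higher (limma adjusted p = 0.0488), a call that was lost in 9 of the 12 fits without 1 array (limma adjusted p up to 0.168) and kept without C57BL/6 Treg array 3, transgenic effector array 1 or transgenic effector array 3. With array weights its difference was 0.46 (limma adjusted p = 0.00072), but that fit leans on few arrays. C57BL/6 Treg array 2 had a weight of 5.017 against 0.45 and 0.236 for arrays 1 and 3. C57BL/6 effector array 1 had 3.932 against 1.223 and 0.803 for arrays 2 and 3. Rac2 probe sets 1417620_AT and 1440208_AT did not pass, with log2 differences of -0.02 and -0.21 (limma adjusted p = 0.898 and 0.611), but 1417620_AT passed after quantile normalization, at 0.62 (limma adjusted p = 0.00595). Quantile normalization also moved the log2 differences of the other genes upward, from -1.78 to -1.13 for Apobec3, from -1.76 to -1.14 and from -1.87 to -1.47 for Lgals1, from 0.93 to 1.48 for Ncf4 and from 0.45 to 0.96 for Mfng. These 5 probe sets passed there too (limma adjusted p of at most 0.00238), while the median of all tested probe sets moved by 0.22. Culture, provider run and pooling of mice go with the populations and cannot be told apart from cell type here.

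In transgenic mice the same populations stood 1.58 apart for Apobec3 on the log2 scale, lower in Treg cells as in C57BL/6 mice (1.78). For Lgals1 they stood 2.71 and 2.82 apart, with no overlap, and for Mfng 1.31. Ncf4, at 0.93 in C57BL/6 mice, differed by 0.08 in transgenic mice, where the populations overlapped. These values share the transgenic arrays with the strain differences above and were not tested.

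After the mean of each population had been taken off, the probe sets most like Apobec3 over the 12 arrays were 1443937_AT (r = 0.96) and 1448759_AT (r = 0.95). The first differed between strains by -4.53 (Treg) and -7.14 (effector) and the second by -4.82 and -9.06, further than Apobec3 did. Ncf4 was most like 1420671_X_AT (r = 0.98) and 1416225_AT (r = 0.97), which lay higher in transgenic mice by 0.80 and 1.21 in Treg cells and by 2.63 and 3.72 in effector cells. The files and tables used here do not pair these 4 probe sets with genes. Among the neighbours themselves, Apobec3 and Ncf4 ran against each other (r = -0.89), and Rac2 1417620_AT went with Ncf4 (r = 0.71). The second Rac2 probe set, 1440208_AT, did not go with Ncf4 (r = 0.08). All of these points share the same 12 arrays and their strains, so the correlations describe the arrays and were not tested.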

How the data were processed

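Spleen T cells were measured on 12 Affymetrix arrays, 3 per group, after a single in vitro transcription amplification, per the labels' protocols. The deposited log2 values were made with GCRMA per the submitters' processing notes; its version, and whether both populations were normalized together, are not given in the sources used here. GCRMA shrinks low values toward a floor, which compresses differences there. Precision is limited by how few arrays there are. The 3 samples of a group are called distinct biological replicates in the labels.

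The members and lists were chosen with earlier results of these data known. The genes of the 11 probe sets come with that choice, not from the table. No probe-to-gene table was used, so the lists of other neighbours, pathways and cell markers planned for were not tested. All 11 members are named, and the 2 probe sets most like a member are named for Apobec3 and Ncf4 only.

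Probe sets with 3 or more arrays at or above log2 5 were kept (18271, leaving out 64 controls), and a linear model of the 4 groups was fitted in limma 3.58.1 (R 4.3.3; eBayes with trend). Standard errors come from that model. Benjamini-Hochberg adjusted p-values under 0.05 over all tested probe sets are called. The fit was first tested on simulated data. Same-numbered Treg arrays of both strains deviated together from their group means (r = 0.583, 0.102 and 0.511, all above 0.1) and were taken as paired; this comes from the data, not the labels. Effector numbers are less sure, since the titles and descriptions of 2 effector samples give different numbers. Same-numbered effector arrays did not all deviate together (0.211, -0.338 and -0.342), but the block held them too. Provider runs were read from consecutive sample codes in the labels. Alternatives were other scalings, filters and variance models, array weights (fitted gene by gene, a method chosen after the default one did not converge on these data), blocks, and leaving out each array. Figures were drawn with matplotlib 3.10.9.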

Additional observations from a re-analysis of the deposited data

Results flagged for a closer look

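Among the 8 probe sets tested here, that of Mfng (1416992_AT) was the one whose strains stood apart in opposite directions: all 3 transgenic arrays lay above the C57BL/6 arrays in Treg cells (log2 difference 0.41) and below them in effector cells (-0.45). The differences stood 0.86 apart (standard error 0.27); this was not tested, since both strain differences were known when the genes were chosen. The opposite pattern was found in 2.07% of all tested probe sets.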

How the results depend on the processing

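Of 184 alternative values of the strain differences, 183 lay within 1 SD of the value reported, but most of them had to. Leaving out 1 of 3 arrays cannot move a difference by 1 SD of its groups. The replicate block and the fit of 1 population alone return the same difference. The count of 183 therefore does not measure how firm the differences are. Those of Apobec3, Ncf4, Mfng, Rac2 and Atf4 kept their sign. In effector cells the small differences of the Lgals1 probe sets each changed sign once, to -0.03 without C57BL/6 array 2 and to -0.09 without transgenic array 3. The one value outside 1 SD was Apobec3 in Treg cells, at -3.34 after quantile normalization; over all its alternatives it ran from -3.34 to -2.77 in Treg and from -3.29 to -3.00 in effector cells, and Ncf4 ran from 0.53 to 0.74 and from 1.41 to 1.60. For the populations of C57BL/6 mice, 6 of these probe sets were called, and 5 to 6 with 1 array left out. The count was 5 with a filter at log2 7, without the variance trend or with the C57BL/6 arrays alone, and 8 of 11 with no filter, where the 3 low probe sets of Csf2rb and Csf2rb2 were added and Mfng was lost (limma adjusted p = 0.0558). Asking for a 2-fold ratio in place of a test gave 3, which asks for a larger difference. Blocking on replicate number also gave a count of 6. That block held the effector arrays as well as the Treg arrays, although same-numbered effector arrays did not all deviate together. It left the strain differences unchanged by construction, with a standard error of 0.19 for Apobec3 in Treg and in effector cells. Quantile normalization moved the median of all probe sets by 0.22 between populations. Low values, as for Csf2rb and Csf2rb2, limit what the arrays can show. The counts of other neighbours of Il2rb within set distances, and their alternatives, were not run because no table pairs probe sets with genes here. The cause of these dependences was not tested.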
